A study of Homo sapiens with 6 samples.

Results

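The proteasome genes described here are the protein-coding genes of the raw count table whose symbol, matched from the Ensembl identifier, begins with PSMA, PSMB, PSMC, PSMD, PSME, PSMF or PSMG. The rule took 50 of the 61859 genes in the table, and 101 genes matched when every gene type was counted. Of the 50, 48 encode parts of the proteasome or its assembly factors and regulators, and PSMC3IP and PSME3IP1 carry such a symbol without being subunits. RNA was sequenced in 6 libraries of IOMM-Lee, an established cell line from a malignant human meningioma that the labels give as grade 3. In 3 libraries the cells were kept in normoxia, at an oxygen level that the labels do not state, and in 3 the cells were held at 0.2% O2 in a hypoxia workstation for 48 h. The labels give 48 h for the normoxic cells too, name no genotype, transgene or drug for either group, and call the 3 libraries of a group biological replicates. Every value comes from 1 cell line in culture.

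The proteasome is the protease that degrades most ubiquitin-tagged proteins of the cell. Its barrel-shaped 20S core has outer rings of alpha subunits (PSMA), which form the gate, and inner rings of beta subunits (PSMB), of which PSMB5, PSMB6 and PSMB7 cut peptide bonds. A 19S regulatory particle of ATPases (PSMC) and non-ATPase subunits (PSMD) caps the core, recognises ubiquitin and unfolds the substrate. In immune cells and under interferon the inducible subunits PSMB8, PSMB9 and PSMB10 take the places of PSMB5, PSMB6 and PSMB7, and the activator of PSME1 and PSME2 docks on the core. This immunoproteasome is known for making peptides that are loaded on class I major histocompatibility molecules.

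The starts of the 5 immune subunit genes and of their neighbour TAP1 are shown because the immune subunits are contrasted with the standard ones, and because interferon-responsive genes often carry a repeated GAAA element near their start. Each window runs from 250 bases before to 50 bases after a gene start, in the RefSeq annotation of GRCh38.p14, and is written 5′ to 3′ on the gene's strand. Capitals mark every match, on either strand, to GAAANNGAAA, which reads TTTCNNTTTC on the other strand.
PSMB8, minus strand, chr6:32843998-32844297: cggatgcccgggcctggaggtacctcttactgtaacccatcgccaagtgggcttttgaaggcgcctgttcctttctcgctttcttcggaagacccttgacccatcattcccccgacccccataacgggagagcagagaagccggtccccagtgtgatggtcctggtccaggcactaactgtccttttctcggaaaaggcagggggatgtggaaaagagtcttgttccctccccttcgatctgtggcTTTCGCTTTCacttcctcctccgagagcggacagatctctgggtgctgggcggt
PSMB9, plus strand, chr6:32853942-32854241: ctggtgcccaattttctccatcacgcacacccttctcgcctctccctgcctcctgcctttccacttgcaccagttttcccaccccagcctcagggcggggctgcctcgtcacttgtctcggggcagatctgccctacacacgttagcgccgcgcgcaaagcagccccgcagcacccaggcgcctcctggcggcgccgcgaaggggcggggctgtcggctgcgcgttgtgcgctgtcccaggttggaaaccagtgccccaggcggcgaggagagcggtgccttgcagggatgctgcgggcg
PSMB10, minus strand, chr16:67936801-67937100: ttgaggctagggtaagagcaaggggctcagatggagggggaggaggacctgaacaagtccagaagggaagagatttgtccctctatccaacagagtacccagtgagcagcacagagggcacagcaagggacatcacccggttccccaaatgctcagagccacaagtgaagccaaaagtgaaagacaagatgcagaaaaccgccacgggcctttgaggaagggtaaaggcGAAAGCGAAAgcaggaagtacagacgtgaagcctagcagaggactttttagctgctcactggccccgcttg
PSME1, plus strand, chr14:24135944-24136243: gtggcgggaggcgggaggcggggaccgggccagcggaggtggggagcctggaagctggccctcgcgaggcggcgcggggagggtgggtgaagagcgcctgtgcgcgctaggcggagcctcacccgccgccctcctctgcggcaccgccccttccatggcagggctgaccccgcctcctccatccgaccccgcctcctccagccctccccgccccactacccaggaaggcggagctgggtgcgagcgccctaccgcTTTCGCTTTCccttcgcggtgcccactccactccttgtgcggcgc
PSME2, minus strand, chr14:24146561-24146860: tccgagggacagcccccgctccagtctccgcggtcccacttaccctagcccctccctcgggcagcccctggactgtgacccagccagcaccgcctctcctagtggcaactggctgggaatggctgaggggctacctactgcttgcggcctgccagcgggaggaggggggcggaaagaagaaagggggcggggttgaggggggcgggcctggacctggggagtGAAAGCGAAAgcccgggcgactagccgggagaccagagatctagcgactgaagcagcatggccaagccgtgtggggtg
TAP1, minus strand, chr6:32853655-32853954: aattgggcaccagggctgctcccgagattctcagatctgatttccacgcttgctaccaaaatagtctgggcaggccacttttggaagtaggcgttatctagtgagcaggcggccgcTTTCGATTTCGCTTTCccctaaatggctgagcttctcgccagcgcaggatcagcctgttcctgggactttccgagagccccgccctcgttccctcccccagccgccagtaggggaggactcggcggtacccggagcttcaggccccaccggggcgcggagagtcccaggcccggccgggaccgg

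PSMB8, PSMB10, PSME1 and PSME2 each had 1 match in the window shown, and PSMB9 had none. A further start of PSMB8, whose window is chr6:32844630-32844929, had no match. The match of PSMB8 spanned the start base, and the match of PSME1 began 5 bases after it. Those of PSMB10 and PSME2 ended 12 and 19 bases before it. TAP1, which encodes a subunit of the transporter that carries proteasome-made peptides into the endoplasmic reticulum, had 2 overlapping matches that ended 125 and 119 bases before its start, and none at a further start whose window is chr6:32852712-32853011. The TAP1 start shown lies 488 bases from that of PSMB9, on the opposite strand, so those matches fall outside the PSMB9 window.

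Windows were found for 42 of the 48 proteasome genes, 51 windows in all. GAAANNGAAA stood in 7 of these 51 windows (13.7%), those of PSMA4, PSMB4, PSMB8, PSMB10, PSME1, PSME2 and PSMG4, and in 3.57% of all 35116 windows. TGACNNNGC, the core of the antioxidant response element, stood in 29.4% of the proteasome windows and 13.3% of all. For the core of the hypoxia response element, ACGTG stood in 19.6% of the proteasome windows against 21.4% of all, and GCGTG in 37.3% against 36.5%. Every motif was searched on both strands, and ACGTG and GCGTG, which share their last letters, were counted separately. These are matches of letters in a window and not binding sites.

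The libraries held 10619864 to 19554178 counts, and 3 counts in a library, the floor used here, corresponded to 0.133 to 0.316 CPM (counts per 1000000, with library totals scaled by TMM). On log2 CPM of all tested genes, the first principal component held 80.9% of the variance and separated the groups, and the second held 7.83% and set hypoxia replicate 3 apart from the other hypoxia libraries. Of the 9 meningioma and arachnoid markers, VIM, DSP, MUC1, CRABP2 and NF2 were detected in every library, SSTR2 was at most 1.15 CPM, and PGR, CDH1 and PTGDS were at most 0.211 CPM. Of the 4 leukocyte markers, which matter here because leukocytes carry immunoproteasomes, 0 had enough counts to be tested. Their summed level was 0.123 to 0.584 CPM in normoxia and 0.722 to 1.12 CPM in hypoxia, with CD3E and CD14 at 0 counts in all 3 normoxia libraries. The endothelial markers summed to at most 3.49 CPM and the glial or neural markers to at most 14.6 CPM in any library. In bulk RNA, fewer cells that express a gene and less of its RNA per cell cannot be told apart.

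Hypoxia went with lower RNA of part of the proteasome genes, and most of the changes were small. A gene was called where edgeR's quasi-likelihood test gave a Benjamini-Hochberg adjusted p under 0.05 over the 16411 genes tested. Of the 46 proteasome genes with enough counts, 6 rose (13.04%), 17 fell (37.0%) and 23 were not called. Over all tested genes, 31.2% were called higher, 31.0% lower and 62.2% in either direction, so the share that fell was near that of all genes and the share that rose was below it. The libraries of the groups did not overlap, with hypoxia lower, for 25 of the 46 proteasome genes and 5651 of the 16411 genes tested (34.4%). With hypoxia higher they did not overlap for 8 of the 46 and 5489 of the 16411 (33.4%). By this measure the proteasome share was above that of all genes for hypoxia lower and below it for hypoxia higher. PSMA8, an alpha subunit of the testis, and PSMB11, a beta subunit of the thymus, had 0 to 2 counts in any library and were not tested.

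The changes of the proteasome genes lay closer together than those of all genes. Their median log2 change was -0.17 and the quartiles were -0.54 and 0.13, while over all tested genes the median was 0.0094 and the quartiles -0.72 and 0.70. Only PSMA2, PSMA6, PSMB3, PSMD1 and PSME3, 5 of 46, were called with a change of at least 2-fold, against 33.9% of all genes. The proteasome genes were also the more abundant, with a median of the mean levels of 64.6 CPM against 15.6 CPM. Without hypoxia replicate 3, 8 proteasome genes rose and 20 fell, with 30.9% of the 17085 genes then tested called higher and 33.0% lower.

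**Figure D1:**
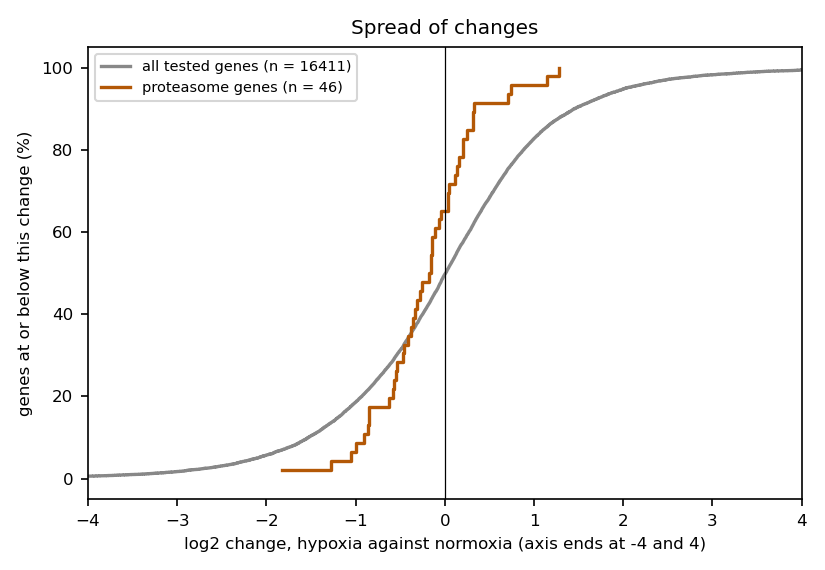
Cumulative share of genes (vertical axis, percent) at or below each log2 change between hypoxia and normoxia (horizontal axis), for the 46 tested proteasome genes and all 16411 tested genes. The proteasome curve is steeper, with quartiles at -0.54 and 0.13 against -0.72 and 0.70, and the axis ends at -4 and 4.

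The scaling of the libraries set how many proteasome genes counted as lower. With library totals alone in place of TMM, 4 proteasome genes rose and 30 fell, the median of all genes moved to -0.30, and 20.8% of all genes were called higher and 42.1% lower. Relative to that median the proteasome median of -0.48 was lower by about as much as with TMM. With no filter on low counts, 4 of 48 rose and 22 fell, with the median of all genes at -0.16, and 12.5% of the 40297 genes then tested were called higher and 15.6% lower. The summed level of the 48 genes was 3456, 3488 and 3828 CPM in normoxia and 3344, 3121 and 3153 CPM in hypoxia, so the hypoxia libraries lay below the normoxia ones. As a share of raw counts the sums were 0.398% ± 0.0105 (SD, n = 3) in normoxia and 0.287% ± 0.00267 (SD, n = 3) in hypoxia.

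**Figure D2:**
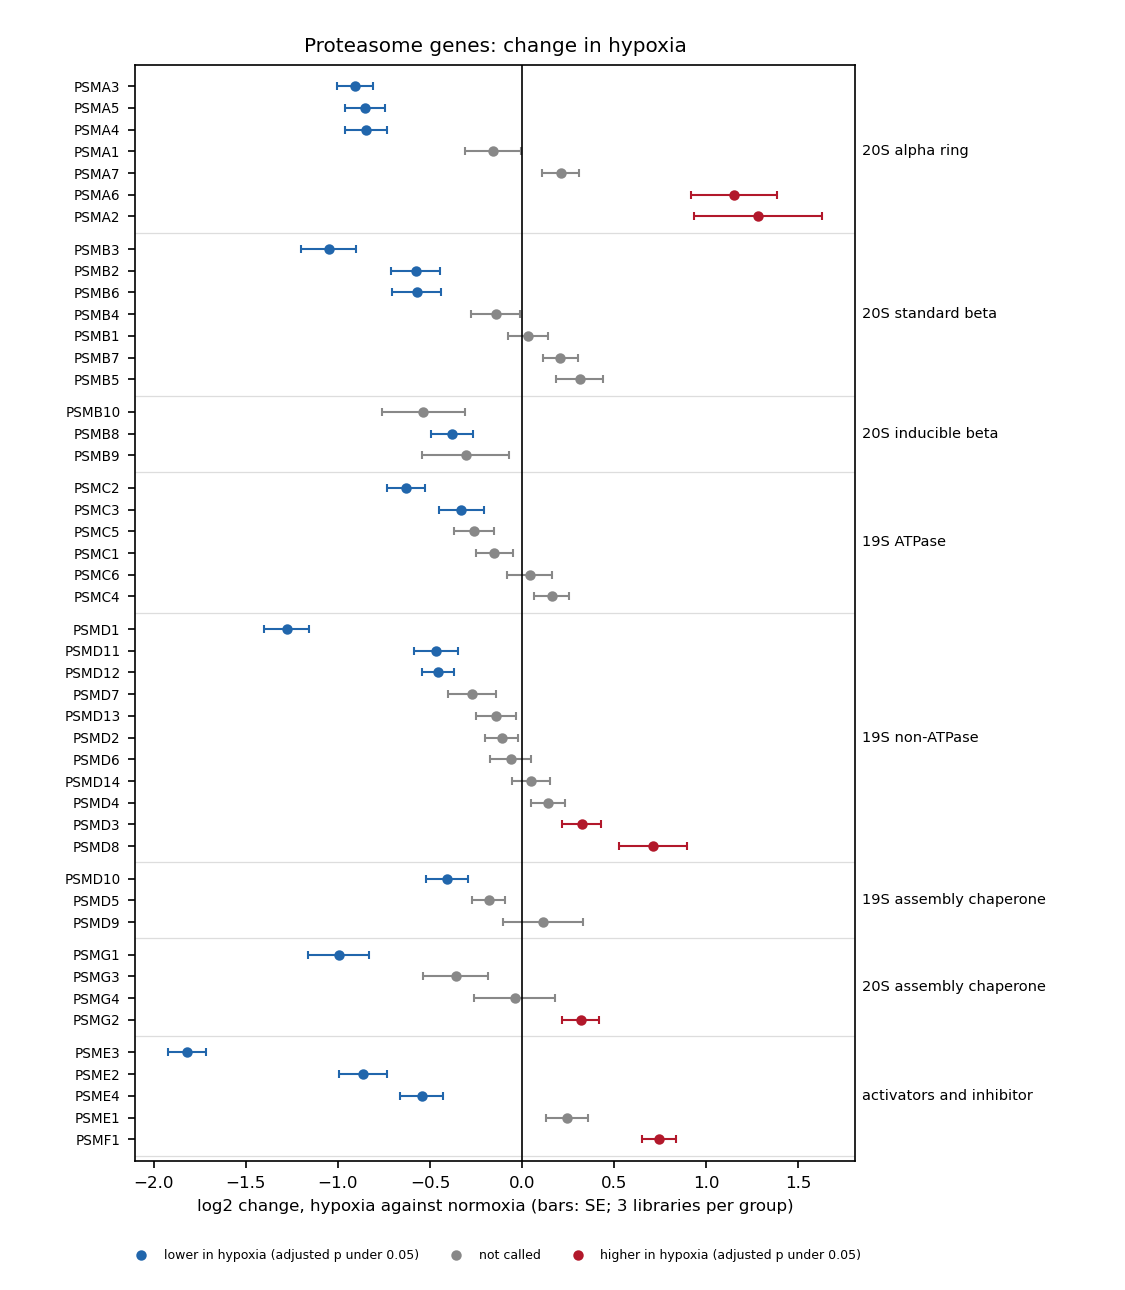
Log2 change between hypoxia and normoxia for each of the 46 tested proteasome genes, grouped by role, with bars for the SE of the edgeR fit over 3 libraries per group and colour for the call at an adjusted p under 0.05. Changes below and above 0, called or not, stand side by side in every role but the inducible beta subunits, from PSME3 at -1.82 to PSMA2 at 1.28. Calls in both directions occur only in the alpha ring, the 19S non-ATPase subunits, the 20S assembly chaperones and the activators with the inhibitor.

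Among the 7 tested alpha subunits of the core, 3 fell (42.9%, against 31.0% of all genes) and 2 rose (28.6%, against 31.2%). Both alpha subunits that rose were counted at unusually low levels. PSMA3, which sits in the ring that gates the core, had 90.7, 91.5 and 94.98 CPM in normoxia and 51.7, 45.6 and 50.5 CPM in hypoxia. All hypoxia libraries lay well below all normoxia libraries, and the log2 change was -0.91 (SE 0.095, edgeR adjusted p 1.45e-05). PSMA4 and PSMA5, members of the same ring, changed by -0.85 each, without overlap between the groups. PSMA1 (-0.16, edgeR adjusted p 0.388) and PSMA7 (0.21, edgeR adjusted p 0.0958) were not called, and PSMA7 turned to -0.10 with library totals alone but was called higher with protein-coding genes alone (0.24, adjusted p 0.0493).

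PSMA2 and PSMA6, ring subunits that every core needs, were counted at a few CPM only. PSMA2 had 2.31, 3.19 and 1.28 CPM in normoxia and 4.32, 7.44 and 4.82 CPM in hypoxia, a log2 change of 1.28 (SE 0.35; adjusted p 0.00783 in edgeR). PSMA6 had 3.99, 3.19 and 3.04 CPM in normoxia and 6.75, 9.48 and 6.68 CPM in hypoxia, a log2 change of 1.15 (SE 0.23; adjusted p 0.00139 in edgeR). The groups did not overlap for either gene. Per kilobase of the principal GENCODE transcript, however, the normoxia levels were 1.52 CPM for PSMA2 and 3.31 CPM for PSMA6, against 95.2 CPM for PSMA7 and 95.3 CPM for PSMA3. In GENCODE release 29 a read-through gene on the same strand covers 52.5% of the principal transcript of PSMA2 and 81% of that of PSMA6, and how reads in such shared exons were assigned is not given in the sources used here. Levels and changes of PSMA2 and PSMA6 are therefore uncertain.

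PSMA1, PSMB10 and PSMD9 also share exons with a protein-coding gene on the same strand, over 53.2%, 45.3% and 28.2% of their principal transcripts. The read-through genes were themselves close to 0, apart from that over PSMB10 (ENSG00000261884), which had 1.64 ± 0.459 CPM in normoxia (SD, n = 3) and 0.675 ± 0.4996 CPM in hypoxia (SD, n = 3). PSMD9 meets a further same-strand gene, CFAP251, over 15.7% of its principal transcript. CFAP251 had 7.19 ± 0.909 CPM in normoxia and 4.93 ± 0.176 CPM in hypoxia (SD, n = 3), above PSMD9 in both groups on this scale, and fell (log2 change -0.55, edgeR adjusted p 0.0303). Without these 5 genes, 4 of 41 tested proteasome genes rose (9.76%) and 17 fell (41.5%), against 31.2% and 31.0% of all genes. The median of the log2 changes of the 41 was -0.26.

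Of the 7 standard beta subunits 3 fell (42.9%, against 31.0% of all genes) and 0 rose (against 31.2%). PSMB3, a non-catalytic subunit of the inner ring, had 84.8, 82.0 and 98.8 CPM in normoxia and 52.3, 34.0 and 42.0 CPM in hypoxia. The groups were far apart, with a log2 change of -1.05 (SE 0.15; adjusted p 0.000137 in edgeR). PSMB2, likewise non-catalytic, changed by -0.58 (SE 0.13, edgeR adjusted p 0.00316).

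The 3 catalytic standard subunits did not move alike. PSMB6, which cuts after acidic residues, had 86.4, 79.5 and 99.2 CPM in normoxia and 70.2, 51.0 and 57.3 CPM in hypoxia, and fell by 0.57 on the log2 scale (SE 0.13, edgeR adjusted p 0.00334). PSMB5, which cuts after hydrophobic residues and is the target of bortezomib, had 50.7, 53.2 and 66.3 CPM in normoxia and 79.0, 67.6 and 64.8 CPM in hypoxia. Normoxia replicate 3 lay above hypoxia replicate 3, and the log2 change of 0.31 (SE 0.13) was not called, at an edgeR adjusted p of 0.0526. Without normoxia replicate 3 it was 0.42 at an adjusted p of 0.0189, and without hypoxia replicate 3 it was 0.34 at 0.0282. It was also called in limma-voom, with the CPM filter and with protein-coding genes alone.

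PSMB7, which cuts after basic residues, had 135, 140 and 158 CPM in normoxia and 172, 161 and 168 CPM in hypoxia. The groups did not overlap, and the log2 change of 0.21 (SE 0.093; adjusted p 0.0734 in edgeR) was not called. It was called higher with protein-coding genes alone (0.24, adjusted p 0.0301) and turned to -0.10 with library totals alone. PSMB1 (0.032, turning to -0.27 with library totals alone) and PSMB4 (-0.14), the remaining non-catalytic subunits, were not called. Per kilobase of principal transcript, PSMB7 had the highest normoxia level of the 48 genes, 147 ± 12.2 CPM (SD, n = 3).

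Among the 5 immune subunits 2 fell (40%, against 31.0% of all genes), PSMB8 and PSME2, and 0 rose (against 31.2%). PSMB8 (ENSG00000204264, chr6:32840717-32844703), the inducible counterpart of PSMB5, had 44.7, 46.4 and 50.9 CPM in normoxia and 40.6, 35.9 and 32.9 CPM in hypoxia. The hypoxia libraries lay below the normoxia libraries by a small margin, with a log2 change of -0.38 (SE 0.12; adjusted p 0.0146 in edgeR). The call was lost without normoxia replicate 3, at -0.34 and an adjusted p of 0.052. PSMB8-AS1, a non-coding gene on the opposite strand, shares 20.6% of the annotated exon bases of PSMB8, and its level was at most 2.74 CPM.

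PSMB9 (ENSG00000240065, chr6:32844136-32859585), the counterpart of PSMB6, had 43.9, 40.3 and 48.2 CPM in normoxia and 48.2, 37.0 and 22.8 CPM in hypoxia. The hypoxia libraries were widely spread, with replicate 1 as high as normoxia and replicate 3, the library that stood apart over all genes, the lowest. The log2 change of -0.31 (SE 0.23, edgeR adjusted p 0.282) was not called. Single hypoxia libraries decided the value, which was -0.59 without replicate 1 (adjusted p 0.0242) and -0.082 without replicate 3 (adjusted p 0.578). PSMB9 was also called lower with library totals alone (-0.62, adjusted p 0.0284) and with no filter on low counts (-0.44, adjusted p 0.00766).

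PSMB10 (ENSG00000205220, chr16:67934502-67937087), the counterpart of PSMB7, was the scarcest of the 3. Its levels were 5.46, 6.19 and 5.43 CPM in normoxia and 4.85, 3.36 and 3.61 CPM in hypoxia, without overlap. The log2 change of -0.54 (SE 0.23) was not called, at an edgeR adjusted p of 0.0581, and was called at an adjusted p of 0.0267 without hypoxia replicate 1 (-0.71), 0.0394 with upper-quartile scaling (-0.60) and 0.0467 in limma-voom (-0.55), and also with library totals alone (-0.85) and no filter on low counts (-0.66). PSMB10 is one of the genes with a read-through neighbour.

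The immune activator subunits parted. PSME2 (chr14:24143362-24147570) had 53.2, 60.7 and 68.6 CPM in normoxia and 36.1, 35.6 and 28.96 CPM in hypoxia. All hypoxia libraries were lower, with a log2 change of -0.86 (SE 0.13; adjusted p 0.000211 in edgeR). PSME1 (chr14:24136158-24138967), its partner in the same ring and its neighbour on the chromosome, had 77.9, 79.2 and 89.6 CPM in normoxia and 112, 94.0 and 87.2 CPM in hypoxia. Hypoxia replicate 3 lay within the normoxia range, and the log2 change of 0.25 (SE 0.11; adjusted p 0.0812 in edgeR) was not called. Without hypoxia replicate 3 it was 0.29 at an adjusted p of 0.0175, and with library totals alone it turned to -0.064. RNF31, on the opposite strand, shares 12% of the principal transcript of PSME2 and had 1.404 ± 0.545 CPM in normoxia and 1.84 ± 0.845 CPM in hypoxia (SD, n = 3).

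**Figure D3:**
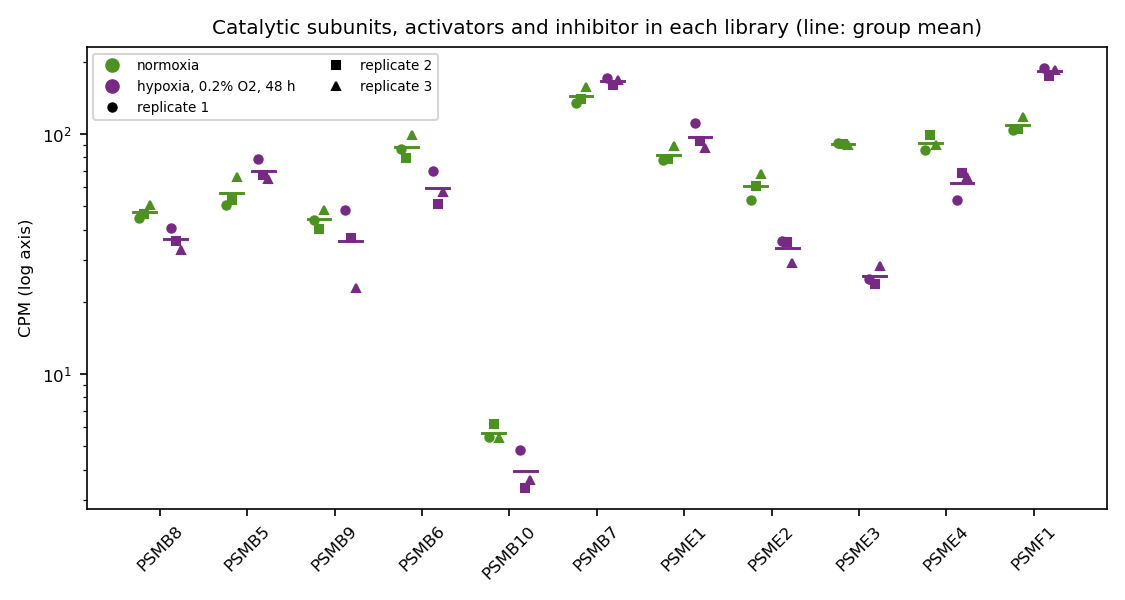
CPM (log axis) in each of the 6 libraries for the inducible beta subunits, each beside its standard counterpart, and for the activators and the inhibitor, with a line at each group mean. PSME3 in hypoxia (23.9 to 28.2 CPM) lies farthest from its normoxia libraries, PSMF1 in hypoxia (175 to 189 CPM) lies above its own, and PSMB9 has the widest hypoxia spread.

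The balance of each inducible subunit to the standard subunit whose place it takes was compared as a log2 ratio of CPM per kilobase of principal transcript, with an exact two-sided permutation test over the libraries. With 3 libraries against 3 the smallest p this test can give is 0.1, so no pair could pass 0.05, and the 3 p-values were adjusted together. The ratio of PSMB8 to PSMB5 was 0.022, 0.0082 and -0.18 in normoxia and -0.75, -0.71 and -0.77 in hypoxia. Levels were thus near equal in normoxia on principal transcripts of 1124 and 1294 bases. Over all annotated exons the lengths are 2997 and 1765 bases, so the level of the ratio depends on the length used. The difference between the groups does not. The difference of -0.70 reached the smallest possible exact p of 0.1 (adjusted 0.15), and the groups did not overlap. Of single genes tested, 34.4% did not overlap with hypoxia lower, and no such share was computed for ratios.

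The ratio of PSMB10 to PSMB7 was -4.91, -4.78 and -5.14 in normoxia and -5.42, -5.84 and -5.80 in hypoxia. PSMB10 was thus far below PSMB7 per kilobase in every library. The difference of -0.74 also gave an exact p of 0.1 (adjusted 0.15) without overlap. The ratio of PSMB9 to PSMB6 was -0.85, -0.85 and -0.92 in normoxia and -0.42, -0.34 and -1.20 in hypoxia. Hypoxia replicates 1 and 2 lay above every normoxia library and replicate 3 below, and the difference of 0.22 had an exact p of 0.4 (adjusted 0.4). The difference was 0.50 without hypoxia replicate 3, 0.10 without replicate 1 and 0.062 without replicate 2.

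**Figure D4:**
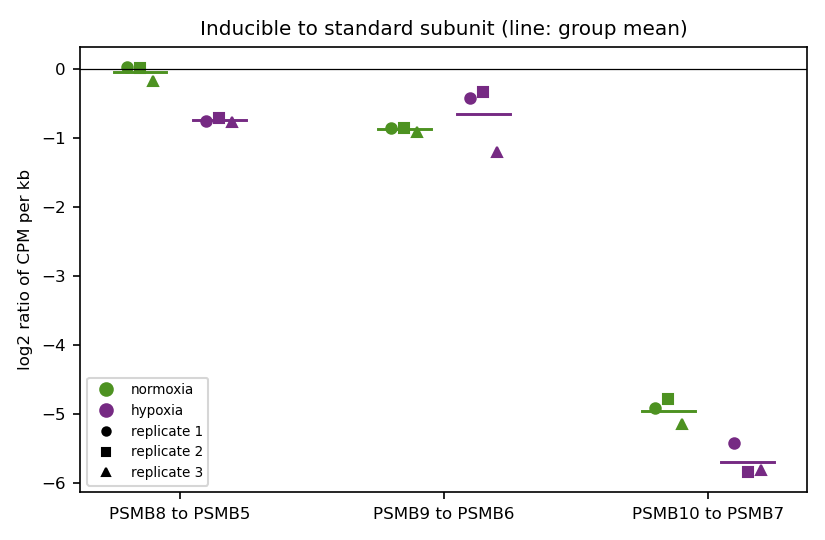
Log2 ratio of CPM per kilobase for each inducible subunit against its standard counterpart, by library, with a line at each group mean; 0 is an equal level. PSMB8 to PSMB5 and PSMB10 to PSMB7 lie lower in all 3 hypoxia libraries, and PSMB9 to PSMB6 overlaps through hypoxia replicate 3.

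Summed by particle, the standard core went from 1119 ± 94.7 CPM in normoxia to 928 ± 53.3 CPM in hypoxia (SD, n = 3), without overlap. The regulatory particle subunits under the symbol rule went from 1668 ± 89.1 to 1552 ± 28.1 CPM, and the groups did not overlap either. The inducible beta subunits summed to 97.2 ± 6.40 CPM in normoxia and 76.4 ± 17.2 CPM in hypoxia, where hypoxia replicate 1 (93.6 CPM) lay within the normoxia range. PSME1 and PSME2 together had 143 ± 13.9 and 131 ± 15.8 CPM, with overlap. The falls of the core and of the inducible subunits were 1.21-fold and 1.27-fold in these sums, and whether they differ was not tested.

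Of the 17 regulatory particle subunits under the symbol rule 5 fell (29.4%, against 31.0% of all genes) and 2 rose (11.8%, against 31.2%). ADRM1 and SEM1, further subunits of this particle, lie outside the rule and are described with the proteasome partners. Among the 6 ATPases, which form the ring that unfolds substrates, PSMC2 had 75.8, 75.3 and 75.9 CPM in normoxia and 54.5, 46.9 and 45.4 CPM in hypoxia. The normoxia libraries were nearly identical and all hypoxia libraries were lower, with a log2 change of -0.63 (SE 0.10; adjusted p 0.000333 in edgeR). PSMC3 was called with a log2 change of -0.33 at an edgeR adjusted p of 0.0368. That call was lost in DESeq2 (adjusted p 0.0515) and in the edgeR test without normoxia replicate 2 (-0.39, adjusted p 0.0528), normoxia replicate 3 (-0.21, 0.145), hypoxia replicate 1 (-0.33, 0.0782) or hypoxia replicate 2 (-0.35, 0.0735).

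PSMC1 (-0.15), PSMC5 (-0.26, edgeR adjusted p 0.0578), PSMC4 (0.16, turning to -0.15 with library totals alone) and PSMC6 (0.040, turning to -0.27) were not called. PSMC5 was called without normoxia replicate 1, at -0.35 and an edgeR adjusted p of 0.0417. It was also called lower with upper-quartile scaling (-0.32, adjusted p 0.021), library totals alone (-0.57, 0.000592) and no filter on low counts (-0.39, 0.0103). NRDE2 covers 82.1% of the principal transcript of PSMC1 on the opposite strand, and FTSJ3 27.2% of that of PSMC5. The strand setting of the counting is not given in the sources used here, so reads in the shared bases cannot be told apart. NRDE2 (log2 change -0.40, edgeR adjusted p 0.0205) and FTSJ3 (-0.57, 0.00115) both fell. Their mean levels were 21.9 and 57.8 CPM in normoxia and 16.6 and 39.0 CPM in hypoxia. The principal transcripts of 11 proteasome genes share exon bases with an opposite-strand gene, and 19 do when every annotated exon is counted. PSMD7 is among the 11, with 50.4% shared with ENSG00000259972, which was not called. Among the 19 are PSMD1 (HTR2B, over 10.8% of its exon bases) and PSME3 (BECN1, over 5.8%). BECN1 fell (log2 change -0.85), and HTR2B had too few counts to be tested.

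Among the 11 non-ATPase subunits, PSMD1, PSMD11 and PSMD12 fell and PSMD3 and PSMD8 rose. PSMD1, a large scaffold subunit of the base, had 118, 127 and 128 CPM in normoxia and 45.1, 47.1 and 60.7 CPM in hypoxia. It stood well below normoxia in every hypoxia library, with a log2 change of -1.28 (SE 0.12; adjusted p 7.11e-06 in edgeR), a 2.42-fold fall. PSMD11 and PSMD12, lid subunits, changed by -0.47 (SE 0.12) and -0.45 (SE 0.087). PSMD2, the scaffold partner of PSMD1 and the most abundant of the 48 genes in CPM, had 404 ± 11.2 CPM in normoxia and 374 ± 15.3 CPM in hypoxia (SD, n = 3) and was not called (-0.11, edgeR adjusted p 0.288).

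PSMD8, a lid subunit that joins late in assembly, had 94.5, 103 and 146 CPM in normoxia and 228, 178 and 157 CPM in hypoxia. The highest normoxia library came close to the lowest hypoxia library, and the log2 change was 0.71 (SE 0.19, edgeR adjusted p 0.0089). PSMD3, another lid subunit, rose by 0.32 (SE 0.11, edgeR adjusted p 0.0207). Its call was lost without normoxia replicate 1 (0.29, adjusted p 0.0911), normoxia replicate 2 (0.22, 0.165) or hypoxia replicate 1 (0.32, 0.0546) and with library totals alone (0.017, 0.901) or no filter on low counts (0.20, 0.263).

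The ubiquitin receptor PSMD4 (0.14, turning to -0.17 with library totals alone) and the deubiquitinase PSMD14 (0.047) were not called with TMM. With library totals alone PSMD14 turned to -0.26 and was called lower, at an edgeR adjusted p of 0.0411. PSMD6 (-0.062), PSMD7 (-0.27) and PSMD13 (-0.14), further lid subunits, were not called either. PSMD7 was called without hypoxia replicate 3, at -0.42 and an edgeR adjusted p of 0.00461. It was also called lower with upper-quartile scaling (-0.34, adjusted p 0.0319), library totals alone (-0.59, 0.00229) and no filter on low counts (-0.39, 0.0252).

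The genes for assembly factors also split. PSMG1, which pairs with PSMG2 to build the alpha ring, had 28.7, 28.2 and 31.1 CPM in normoxia and 17.8, 11.0 and 15.2 CPM in hypoxia. All hypoxia libraries were lower, with a log2 change of -0.997 (SE 0.17; adjusted p 0.000401 in edgeR). PSMG2 had 72.8, 70.6 and 66.1 CPM in normoxia and 93.5, 78.4 and 89.5 CPM in hypoxia, all higher than normoxia, with a log2 change of 0.32 (SE 0.10; adjusted p 0.0175 in edgeR). The partners of 1 heterodimer were thus called in opposite directions. The PSMG2 call was lost with library totals alone (0.0051, adjusted p 0.972) or no filter on low counts (0.20, 0.294), and likewise without normoxia replicate 1 (0.33, 0.0516), normoxia replicate 2 (0.30, 0.0786), normoxia replicate 3 (0.27, 0.0854) or hypoxia replicate 1 (0.25, 0.0761).

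PSMG3 (-0.36, edgeR adjusted p 0.0956) and PSMG4 (-0.041), the other pair of alpha-ring chaperones, were not called. PSMG3 was called lower without hypoxia replicate 3 (-0.45, edgeR adjusted p 0.0395) and with upper-quartile scaling (-0.43, 0.0485). The same held with library totals alone (-0.67, 0.00436) and no filter on low counts (-0.48, 0.0354). Of the chaperones of the 19S base, PSMD10, also known as gankyrin, had 54.8, 49.3 and 50.1 CPM in normoxia and 40.8, 41.6 and 34.1 CPM in hypoxia. The groups did not overlap, and the log2 change was -0.41 (SE 0.11, edgeR adjusted p 0.00922). PSMD5 (-0.18) and PSMD9 (0.11, turning to -0.19 with library totals alone) were not called, and PSMD5 was called without hypoxia replicate 3 (-0.22, edgeR adjusted p 0.0361). PSMD5 was also called lower with upper-quartile scaling (-0.25, adjusted p 0.0332) and library totals alone (-0.49, 0.00146).

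The genes for alternative caps and the inhibitor held the largest fall, that of PSME3, and a 1.68-fold rise, that of PSMF1. PSME3 (chr17:42824385-42843758), the nuclear activator that docks on the core in place of the 19S particle and acts without ubiquitin, had 91.6, 91.3 and 89.8 CPM in normoxia and 24.9, 23.9 and 28.2 CPM in hypoxia. The libraries within each group nearly coincided, and the groups were 3.53-fold apart (log2 change -1.82, SE 0.10, edgeR adjusted p 2.08e-07). PSME4, a large nuclear activator, had 85.7, 99.0 and 90.4 CPM in normoxia and 53.4, 68.8 and 66.1 CPM in hypoxia, all lower, with a log2 change of -0.55 (SE 0.12; adjusted p 0.00196 in edgeR).

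PSMF1 (chr20:1113263-1189415), which encodes a protein that inhibits the core in the test tube, went the opposite way. It had 104, 105 and 118 CPM in normoxia and 189, 175 and 185 CPM in hypoxia. The hypoxia libraries were all higher, by 1.68-fold (log2 change 0.74, SE 0.092, edgeR adjusted p 4.45e-05). Of the symbol matches that are not subunits, PSMC3IP, a cofactor of meiotic recombination, changed by -1.35 (SE 0.32, edgeR adjusted p 0.00359), and PSME3IP1, a binding partner of PSME3, by -0.89 (SE 0.11, edgeR adjusted p 3.74e-05). MLX, on the opposite strand, covers 54.4% of the principal transcript of PSMC3IP and rose (log2 change 1.07).

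Of 16 proteasome partners outside the symbol rule 3 rose (18.75%) and 7 fell (43.75%), against 31.2% and 31.0% of all genes. The median of their log2 changes was -0.31. POMP, the chaperone that matures the core, had 166 ± 12.1 CPM in normoxia and 135 ± 30.8 CPM in hypoxia (SD, n = 3) and was not called (-0.30, edgeR adjusted p 0.0945). Without hypoxia replicate 1 it was called (-0.51, adjusted p 0.00439). POMP was also called lower with upper-quartile scaling (-0.37, adjusted p 0.0455), library totals alone (-0.62, 0.00135) and no filter on low counts (-0.43, 0.0024). SEM1, a small lid subunit, was not called (-0.054), and its sign turned in 3 fits that left out a library. ADRM1, a ubiquitin receptor of the 19S particle, had 30.8, 30.4 and 39.4 CPM in normoxia and 49.1, 44.9 and 55.9 CPM in hypoxia. It rose by 0.58 (SE 0.14, edgeR adjusted p 0.00346), a call lost with library totals alone (0.27, adjusted p 0.0873). UCHL5, the deubiquitinase that ADRM1 recruits, fell by 0.67, and the shuttle factor UBQLN2 by 0.88. TXNL1, a thioredoxin-like protein of the 19S particle, rose by 0.59.

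The list of genes that control proteasome gene transcription held 8 genes, NFE2L1 with its processing factors and the related factor NFE2L2. Of the 8, 4 rose (50%) and 1 fell (12.5%), against 31.2% and 31.0% of all genes. NFE2L1, the transcription factor that restores proteasome synthesis when its activity is short, had 72.0, 75.9 and 80.1 CPM in normoxia and 137, 141 and 108 CPM in hypoxia. All hypoxia libraries were higher, with a log2 change of 0.76 (SE 0.12; adjusted p 0.000198 in edgeR). NGLY1, the enzyme that removes N-glycans from NFE2L1, went from 45.3 ± 1.42 CPM to 206 ± 24.4 CPM (SD, n = 3), a 4.54-fold rise. SYVN1, a ubiquitin ligase of the endoplasmic reticulum that turns NFE2L1 over, rose 1.96-fold. VCP, the ATPase that extracts NFE2L1 from the membrane, went from 204 ± 8.63 CPM to 89.0 ± 10.5 CPM (SD, n = 3), a 2.30-fold fall. RNA of this list thus moved in both directions, and the protein was not measured.

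The list of class I antigen processing and its interferon control held 18 genes, and the median log2 change was 0.022. Of the 18, 6 rose (33.3%) and 7 fell (38.9%), near the 31.2% and 31.0% of all genes. TAP1 (chr6:32845209-32853978), which shares its start region with PSMB9, had 34.2, 30.9 and 29.2 CPM in normoxia and 79.6, 73.7 and 71.0 CPM in hypoxia. It rose 2.37-fold (log2 change 1.25, SE 0.11, edgeR adjusted p 3.22e-06) while PSMB9 was not called. TAP2 (chr6:32821833-32838780), the partner of TAP1 in the transporter, had 63.9, 65.3 and 59.8 CPM in normoxia and 19.1, 19.1 and 16.6 CPM in hypoxia, a 3.46-fold fall. Along this stretch of chromosome 6, TAP2 and PSMB8 thus fell, PSMB9 was not called and TAP1 rose.

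Among the factors named here that relay interferon signals to immunoproteasome and class I genes, STAT2, IRF1 and NLRC5 fell and IRF9 rose. In the same list JAK1 (log2 change 0.57), IFNGR2 (0.36) and IRF2 (0.35) rose, and IFNGR1 and JAK2 were not called. The list thus held calls in both directions, and some of its genes are not reported here. STAT2 changed by -1.44, IRF1 by -1.06 and NLRC5, the activator of class I genes, by -1.23. IRF9, a partner of STAT2, went the other way, from 2.42 ± 0.434 CPM to 6.60 ± 0.995 CPM (SD, n = 3), a log2 change of 1.43. The part of these factors in the levels of PSMB8, PSMB9, PSMB10, PSME1 and PSME2 was not tested.

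**Figure D5:**
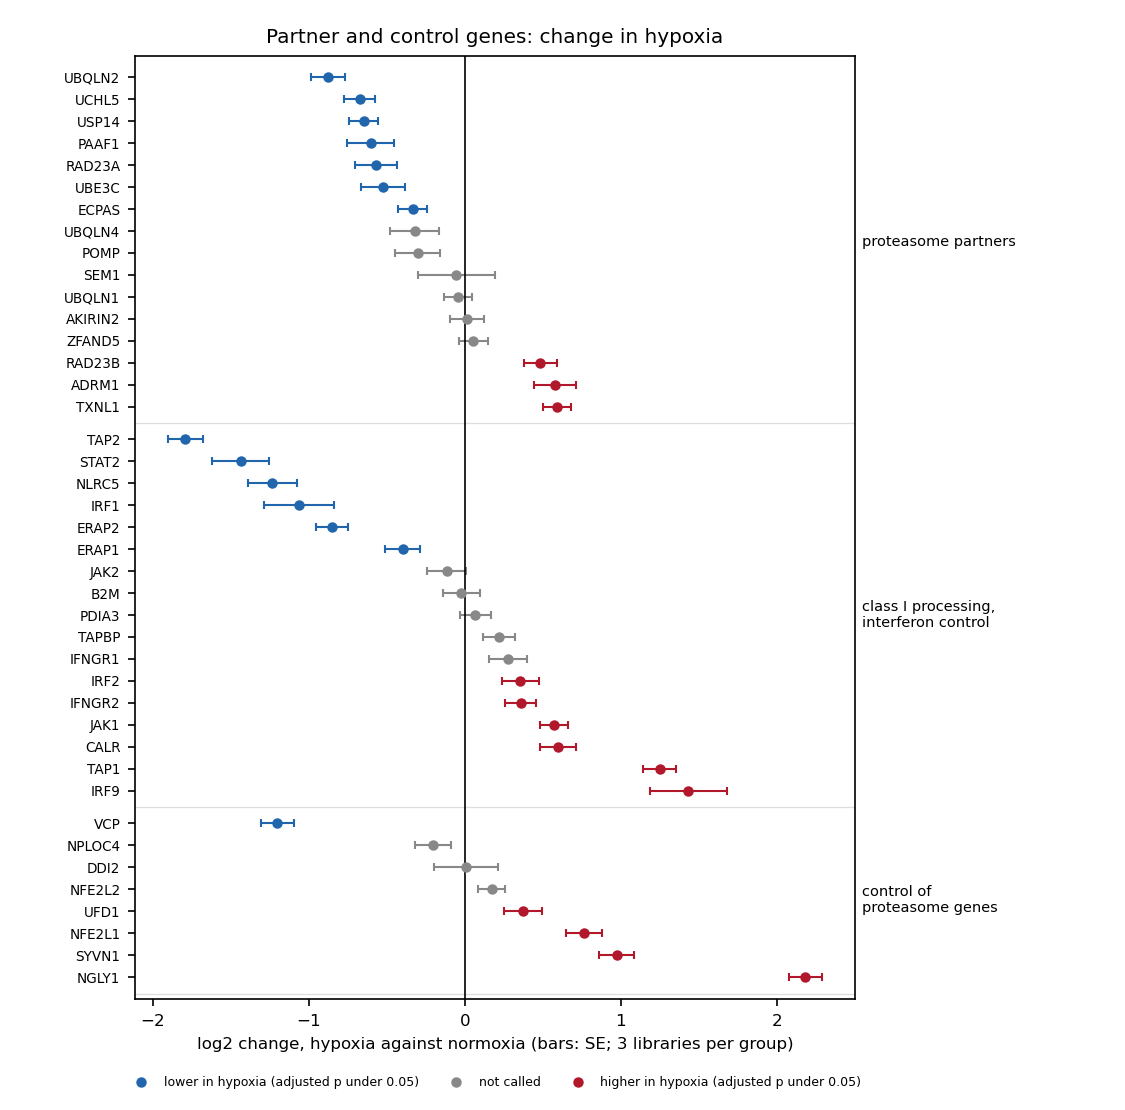
Log2 change between hypoxia and normoxia for the genes shown of 3 related lists, with bars for the SE of the edgeR fit over 3 libraries per group and colour for the call at an adjusted p under 0.05. NGLY1 (2.18) and TAP2 (-1.79) lie at the ends, and TAP1 and TAP2 lie on opposite sides of 0.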

How the data were processed

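RNA was sequenced in 3 normoxia and 3 hypoxia libraries of IOMM-Lee cells, grouped by the sample titles. The authors deposited raw read counts per Ensembl gene, with replicates in separate columns. Build GRCh38.p13, the trimmer fastp 0.20.1, the aligner HISAT2 2.1.0 and the counter featureCounts 2.0.1 are named, with DESeq2 1.37.5, per the submitters' processing notes. For the annotation release, the strand setting and multi-mapping reads, the choice is not given in the sources used here. A line that names no gene, with 0.00243% of the counts, was left out. A second deposited table was not used here.

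The test was edgeR 4.0.16, run in R 4.3.3. The filter was filterByExpr (minimum count 10, minimum total 15), scaling was by TMM (factors 0.866 to 1.16), and the groups were compared by a robust quasi-likelihood F test. Benjamini-Hochberg adjustment covered all 16411 tested genes, with a threshold of 0.05. Each SE is the absolute log2 change over the root of its F statistic. The biological coefficient of variation was 15.3%. Floors of 3 counts cover counting error only. The script was tested on simulated counts. No replicate pair agreed within sampling noise (5.83 to 36.9 of chi-square per gene), so each library counted as 1 replicate. Deviations of same-numbered libraries from their group means correlated at -0.11, 0.086 and -0.038, so the numbers were not taken as pairs. Coordinates, gene types and principal transcripts are from GENCODE release 29 on GRCh38, and start windows from RefSeq on GRCh38.p14. Subunit ratios used log2 CPM with a prior count of 2.

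Members and lists were chosen with earlier results of these data known. Every matching gene was accounted for. Values in all libraries were given for the immune subunits, their counterparts, the other activators, the inhibitor and, per role, the largest rise and fall called. From each related list up to 2 called genes per direction with a mean of at least 1 CPM were named, besides POMP, ADRM1, SEM1, NFE2L1, TAP1, IRF1 and NLRC5. JAK1, JAK2, IFNGR1, IFNGR2 and IRF2 were added for the interferon factors. Some genes of the related lists are not reported here. PSMA4, PSMA5, PSMB2, PSMC3, PSMD2, PSMD3 and other members carry summary values. Alternatives were DESeq2 1.42.0, limma-voom (limma 3.58.1), RLE, upper-quartile and library-total scaling, other filters, protein-coding genes alone, no 10 most abundant genes, a replicate block, a threshold of 0.01, a prior count of 0.5 and leaving out each library. Counting the members without the 5 genes that share exons with a same-strand gene was added after seeing the data.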

Additional observations from a re-analysis of the deposited data

How the results depend on the processing

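Under the alternatives the number of proteasome genes that rose ranged from 4 to 9 and the number that fell from 15 to 30, with only the 30 of library totals alone differing by more than 1.5 times from the 17 reported. Leaving out each library gave 4 to 8 that rose and 15 to 20 that fell. In those fits 25.6% to 30.9% of all genes were called higher and 26.2% to 33.0% lower. With the replicate number as a block, 6 rose and 17 fell, as without it. Of all genes 29.6% were then called higher and 29.9% lower. The replicate numbers were not taken as pairs. Of 782 combinations of a tested proteasome gene and a setting, 697 kept direction and call, 21 lost a call, 37 gained one and 27 changed sign, and 19 of the 46 genes kept both in every setting run. The 3 subunit ratios kept their direction with a prior count of 0.5 and without each library.

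Every change of sign was in a gene not called with TMM, and PSMD14 was called lower after it, with library totals alone (adjusted p 0.0411). With library totals alone the log2 changes of PSMA7 (-0.10), PSMB1 (-0.27), PSMB7 (-0.10), PSMC4 (-0.15), PSMC6 (-0.27), PSMD14 (-0.26), PSMD4 (-0.17), PSMD9 (-0.19) and PSME1 (-0.064) turned negative. PSMA1, PSMB4, PSMC1, PSMD2, PSMD6 and PSMD13, not called with TMM, were called lower with library totals alone. With upper-quartile scaling 6 rose and 22 fell, with 28.9% of all genes called higher, 33.4% lower and their median at -0.058. That scaling gave -0.030 for PSMB1, -0.023 for PSMC6 and -0.016 for PSMD14. With no filter the values were -0.094 for PSMB1, -0.087 for PSMC6, -0.079 for PSMD14 and -0.0099 for PSMD9. Over the fits without 1 library the sign varied for PSMB1 (-0.061 to 0.079), PSMC6 (-0.046 to 0.137), PSMD14 (-0.033 to 0.102), PSMD9 (-0.022 to 0.16), PSMG4 (-0.32 to 0.11) and SEM1 (-0.29 to 0.21). Beyond the shifts of all genes given for the scalings, the cause was not tested. PSMA2, PSMA6, PSMB10 and PSMD9, each under 10 CPM in every library, had SE of 0.22 to 0.35.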

Other observations

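The symbol rule also matched 51 genes of other types, 44 of them pseudogenes, of which 7 had enough counts to be tested. PSMB8-AS1, a non-coding gene beside PSMB8, fell from 2.45 ± 0.334 CPM to 0.779 ± 0.392 CPM (SD, n = 3; log2 change -1.69, SE 0.40, edgeR adjusted p 0.00382), a larger fitted change than that of PSMB8, although the difference between them was not tested. PSMG3-AS1 fell (log2 change -1.71, SE 0.58, edgeR adjusted p 0.024) at levels of at most 1.02 CPM, and PSMD6-AS2 rose (log2 change 0.75, SE 0.30, edgeR adjusted p 0.0475). PSMA3-AS1 (-0.083) was not called, with 24.1 ± 1.99 CPM in normoxia and 22.7 ± 3.88 CPM in hypoxia (SD, n = 3), while PSMA3 fell.

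Among the pseudogenes, PSMD10P1 had 2.40, 2.14 and 1.58 CPM in normoxia and 5.17, 8.15 and 5.30 CPM in hypoxia, a rise of 1.59 on the log2 scale (SE 0.28, edgeR adjusted p 0.000612), while PSMD10 itself fell. PSMA6P1 rose by 1.014 (SE 0.26, edgeR adjusted p 0.0059), from 2.05 ± 0.368 CPM to 4.13 ± 0.243 CPM (SD, n = 3), near the level and the change of PSMA6. PSMC1P1 (0.27) was not called. Reads of a processed pseudogene and of its parent gene can be hard to tell apart, so these values are uncertain, and the share of reads that could have come from the parent genes was not tested.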
